A study of Homo sapiens with 6 samples.

Results

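The genes described here encode the proteins that join neighboring cells to each other: cadherins, catenins, nectins and related adhesion molecules, desmosome parts, tight junction parts and gap junction channels. They are 39 genes chosen by name, of 61552 gene identifiers in the count tables, and all 39 symbols were found. The edgeR expression filter kept 38 of them for testing. JAM3 had no count in any library and was not tested, and 5 of the 39, JAM3 included, had a mean under 1 CPM (counts per 1000000 library counts, here normalized by TMM).

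Adherens junctions hold cells together through cadherins, whose tails bind catenins that tie them to actin. Desmosomes use other cadherins, desmogleins and desmocollins, which plakophilins, plakoglobin and desmoplakin connect to keratin or vimentin filaments. Tight junctions seal the space between epithelial cells with claudin strands on a plaque of scaffold and polarity proteins, and connexins form channels between adjoining cells. Cells that take on a mesenchymal state usually lose much of this set, and repressors of the ZEB and SNAI families, which bind E-box letters in promoters, are known to act in that loss.

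The question was what VNLG-152R, a small molecule known to lead to loss of the kinases MNK1 and MNK2, does to the transcriptome of MDA-MB-231 cells. MDA-MB-231 is an established human breast cancer line of the triple-negative class with a mesenchymal-like shape. Polyadenylated RNA of 3 samples given 10 μM VNLG-152R and of 3 given the vehicle DMSO, all collected after 24 h, was sequenced as stranded libraries. All cells were of this 1 line, and the labels name no genetic change. Nothing in the labels ties the 3 samples of a group to separate experiments, so p-values here speak of the spread among these samples alone, and that spread may be technical.

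Library totals were 60122936 to 68583224 counts in controls and 69923839 to 82151816 counts with VNLG-152R. Of the 17084 genes tested by the edgeR quasi-likelihood test, 642 rose and 245 fell at an adjusted p under 0.05. Of the markers of a mesenchymal state, VIM, which encodes vimentin, was abundant at 4911 to 5166 CPM in controls and 3397 to 4323 CPM with VNLG-152R and fell (log2 fold change -0.39, adjusted p = 0.0472). That call was lost with a filter at a mean of 1 CPM (adjusted p = 0.0528), with the length correction (0.0803) and with replicate number as a block. It was also lost on leaving out any 1 library (0.0890 to 0.174) other than VNLG-152R replicate 1 (0.0102). FN1, fibronectin, the other abundant gene of that list, had means of 696 ± 153 CPM in controls and 816 ± 103 CPM with VNLG-152R and did not pass (0.23, adjusted p = 0.372). CDH2 and SPARC stayed under 1 CPM in every library. The summed level of its 4 genes, mostly from VIM, was 5453 to 6013 CPM in controls and 4175 to 5257 CPM with VNLG-152R. The 6 epithelial markers summed to 2085 to 2215 and 1714 to 2182 CPM, mostly from keratins, and none of them passed the test with edgeR. The nearest was KRT18, at 594 to 642 CPM in controls and 396 to 537 CPM with VNLG-152R (log2 fold change -0.37, adjusted p = 0.0696). KRT8 (-0.21) and KRT19 (0.05) overlapped between groups. ESR1 did not exceed 0.0967 CPM in any library, and PGR stayed under 1 CPM, whereas ERBB2 RNA was at 84.3 to 118 CPM. Leukocyte markers summed to no more than 0.192 CPM in any library. Of the endothelial and fibroblast markers, PECAM1 at 21.3 to 26.5 CPM and COL1A1 at 15.1 to 18.4 CPM were present, and CDH5, VWF, COL1A2 and DCN were at 0.192 CPM or less. The part of these markers in the junction results was not tested, and in bulk RNA fewer cells of a type and less RNA per cell cannot be told apart.

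The stretches upstream of a start site are shown for the junction genes that passed the test, because ZEB and SNAI repressors bind E-box letters and junction genes are known targets. They are the 250 bases before a RefSeq start on GRCh38.p14, on the strand of the gene, in lower case with E-box letters CACCTG or their reverse complement CAGGTG in capitals. That of PCDH1 is chr5:141869628-141869877 on the minus strand and lies in an intron of the GENCODE gene model. That of ALCAM is chr3:105366659-105366908 on the plus strand, just upstream of the gene model. That of CLDN7 is chr17:7263214-7263463 on the minus strand and lies in an intron of a longer transcript.
PCDH1: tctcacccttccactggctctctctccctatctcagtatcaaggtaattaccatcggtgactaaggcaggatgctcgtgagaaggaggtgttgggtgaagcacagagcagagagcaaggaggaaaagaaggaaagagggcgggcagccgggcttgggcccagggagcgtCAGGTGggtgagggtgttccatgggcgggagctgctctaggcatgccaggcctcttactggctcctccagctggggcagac
ALCAM: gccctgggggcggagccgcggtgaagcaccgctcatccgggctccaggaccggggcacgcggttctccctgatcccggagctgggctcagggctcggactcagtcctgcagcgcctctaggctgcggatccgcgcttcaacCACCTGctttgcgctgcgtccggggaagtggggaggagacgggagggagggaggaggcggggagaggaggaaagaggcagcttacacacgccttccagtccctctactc
CLDN7: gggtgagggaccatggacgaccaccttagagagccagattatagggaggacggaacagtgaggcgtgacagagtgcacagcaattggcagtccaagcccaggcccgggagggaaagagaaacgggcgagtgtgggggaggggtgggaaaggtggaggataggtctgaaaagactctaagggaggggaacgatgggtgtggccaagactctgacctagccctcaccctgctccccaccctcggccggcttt
The windows of PCDH1 and ALCAM each held the E-box letters 1 time, and the printed window of CLDN7 held none. A second start of CLDN7 had 5 matches in the 300 bases that run from 250 before it to 50 after it. That window lies in an exon of another CLDN7 transcript and is not printed. PKP3, the member that fell, and CDH1 had no entry in the promoter table.

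Over such 300-base windows, 25 of the 39 members matched the RefSeq table, with 38 starts among them. The E-box letters were found in at least 1 window of 13 of these 25 genes (52%), against 3933 of 15843 protein-coding genes (24.8%). By single start, 14 of 38 member windows (36.8%) and 7231 of all 35116 windows (20.6%) held them. The latter windows were not limited to protein-coding genes. AFDN, with 4 matches, and DSP, DSG2 and JUP, with 2 each in 1 window, were among the members that held them, so the letters were found in genes that passed the test and in genes that did not. The AP-1 letters TGANTCA, searched on both strands, were found in CLDN4 and GJA1 only, 2 of 25 members (8%) against 8.04% of protein-coding genes. A match is a run of letters and was not measured as a bound site.

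With VNLG-152R, 4 of the 38 tested junction genes passed the test and 34 did not. PCDH1, ALCAM and CLDN7 rose and PKP3 fell, each by less than 1 on the log2 scale. These are 10.5% of the tested members, against 5.19% of all 17084 tested genes, 3.76% higher and 1.43% lower. The list was chosen with earlier results of these data known, so these shares do not test whether junction genes were called more often. Log2 fold changes of the members ran from -0.55 to 0.57 with a median of 0.07, against -0.0024 over all tested genes, and 24 members were above 0 and 14 below. All 3 treated libraries were above all 3 controls for 8 members and below them for 3, where 15.1% and 13.4% of all tested genes did not overlap in those directions. In edgeR 9 of the 38 members had an unadjusted p under 0.05, where 22.6% of all tested genes did.

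Which members passed depended on the libraries used. Without vehicle control replicate 3 no member passed in edgeR, where 264 genes in all were called (1.51%). In that fit 8 members had an unadjusted p under 0.05, as did 2887 of all 17505 tested genes. Without VNLG-152R replicate 3 only CLDN7 passed (2.69% of all genes), without vehicle control replicate 1 ALCAM and PKP3 did (2.44%), and without VNLG-152R replicate 2 PCDH1 and PKP3 did (3.07%). Without vehicle control replicate 2 all but ALCAM passed (3.53%), and without VNLG-152R replicate 1 PCDH1 did not pass while CDH11 did, as lower (5.42%). With DESeq2 5 members passed, the same 4 and CDH11, where 8.79% of all genes passed.

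**Figure D1:**
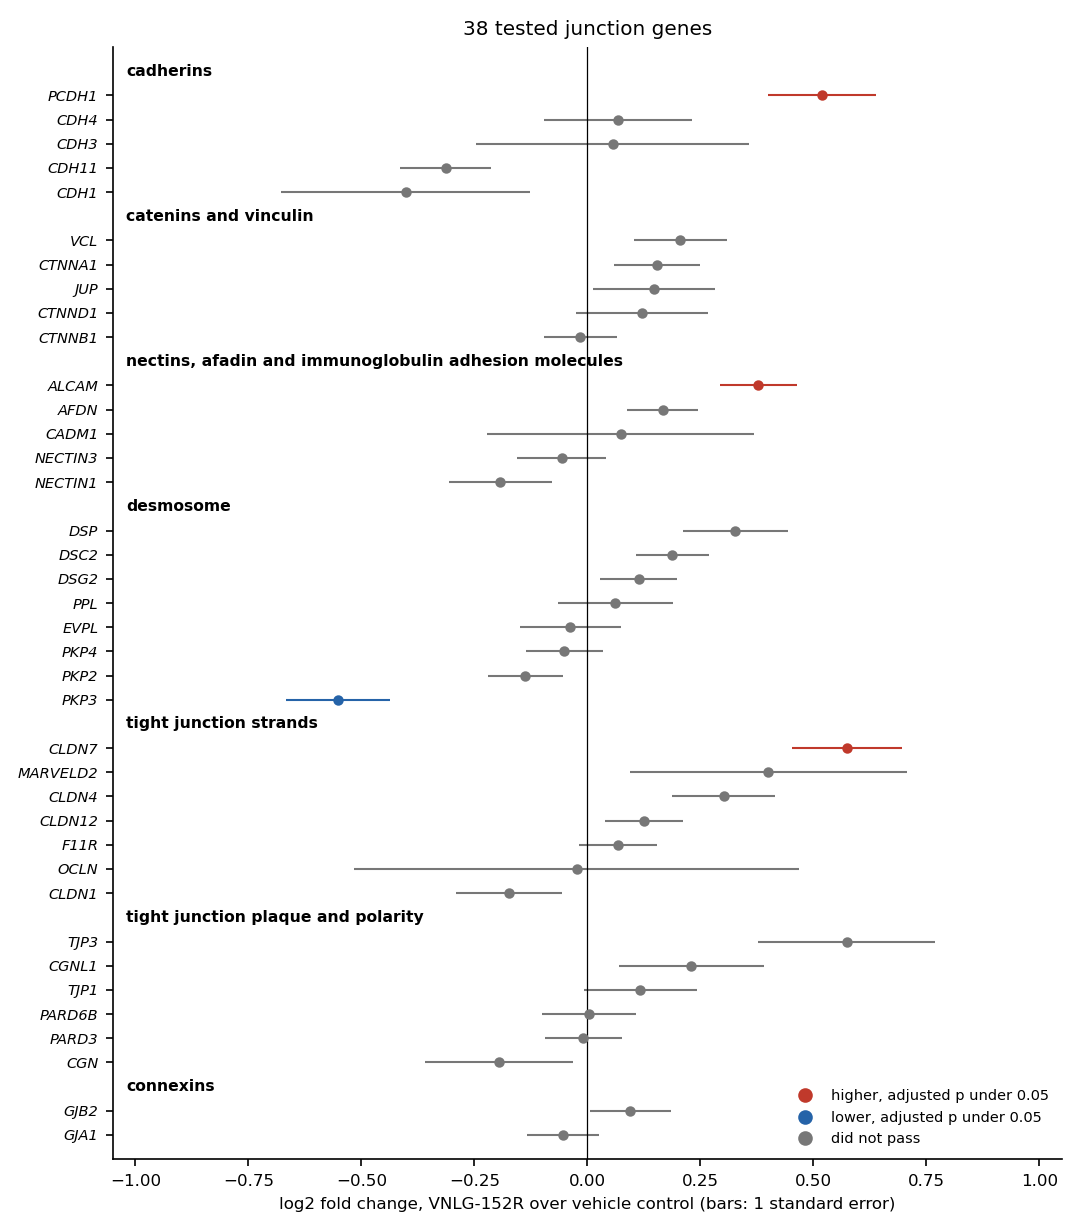
Log2 fold change of VNLG-152R over vehicle control for the 38 tested junction genes, grouped by role, as points with bars of 1 standard error from edgeR (n = 3 libraries a group). PCDH1, ALCAM and CLDN7 lie to the right in red and PKP3 to the left in blue at an adjusted p under 0.05, and the gray points of the other 34 did not pass.

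Of the 5 cadherins, which form the outer bond of the junction, 1 rose and none fell in edgeR, and DESeq2 called CDH11 as well. Over all tested genes 5.19% passed in edgeR and 8.79% with DESeq2. The groups of members hold 2 to 8 genes each, too few to be set apart from those shares. In edgeR 2 of the 5 cadherins had an unadjusted p under 0.05, where 22.6% of all tested genes did. PCDH1, a protocadherin with a known part in epithelial adhesion, lies on GRCh38 at chr5:141853111-141879246. It was at 9.11, 9.77 and 8.78 CPM in controls and at 15.7, 11.6 and 12.4 CPM with VNLG-152R. Every treated library was above every control, and VNLG-152R replicate 1 was the highest. The means were 9.22 ± 0.503 and 13.2 ± 2.15 CPM (SD, n = 3 each), with a log2 fold change of 0.52 ± 0.12 (SE) and an adjusted p of 0.0295 in edgeR. Leaving out 1 library gave log2 fold changes of 0.38 to 0.61. The adjusted p was then over 0.05 without control replicate 1 (0.0801) or 3 (0.131) and without VNLG-152R replicate 1 (0.0503) or 3 (0.0636).

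CDH11, a cadherin of mesenchymal cells at chr16:64943753-65126112, had the highest CPM of these 5 genes in both groups. It was at 253, 296 and 282 CPM in controls and at 250, 200 and 218 CPM with VNLG-152R. The groups did not overlap, but VNLG-152R replicate 1 lay just below the lowest control. It had a log2 fold change of -0.31 ± 0.10 (SE) and an adjusted p of 0.0908, which did not pass in edgeR and passed with DESeq2 (adjusted p = 0.0292) and with a correction for transcript length (-0.41, adjusted p = 0.0280). Without VNLG-152R replicate 1 it also passed (-0.40, adjusted p = 0.0269).

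The other cadherins were lower. CDH1, the E-cadherin of epithelial cells, had 26, 42 and 43 raw counts in the controls and 36, 28 and 36 counts with VNLG-152R, under 1 CPM throughout. Counts of this size left its log2 fold change of -0.40 with a standard error of 0.27 (adjusted p = 0.412). CDH3, the P-cadherin gene next to it on chromosome 16, had 19, 22 and 17 counts against 17, 27 and 29. CDH4 was at 6.59 to 9.27 CPM in controls and 6.79 to 10.1 CPM with VNLG-152R. Annotated antisense genes cover 5.62% of the exons of CDH1 and 11.1% of those of CDH3, and the strand setting of the counting is not given in the sources used here.

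The catenins and vinculin, which carry the cadherin bond to actin, were abundant apart from CTNND1. None of the 5 passed in edgeR or with DESeq2. None had an unadjusted p under 0.05 in edgeR, where 22.6% of all tested genes did. CTNNA1, the actin-binding catenin, had 1079 to 1228 CPM in controls and 1165 to 1377 CPM with VNLG-152R (log2 fold change 0.15). CTNNB1, beta-catenin, which also serves Wnt signaling, had 513 to 547 CPM and 513 to 543 CPM (-0.02, standard error 0.08). These groups overlapped, as did those of JUP, plakoglobin, with 165 to 220 CPM and 182 to 259 CPM (0.15). VCL, vinculin, was at 486, 565 and 543 CPM in controls and at 697, 573 and 568 CPM with VNLG-152R. The treated libraries were above the controls and replicate 1 stood apart from the other two, with a log2 fold change of 0.21 that did not pass (adjusted p = 0.260). CTNND1, the p120 catenin that keeps cadherins at the membrane, had 601, 413 and 458 raw counts in controls and 534, 713 and 684 after VNLG-152R. That is far below the other catenins. In GENCODE release 29 4.64% of its exons overlap same-strand genes, one a readthrough with TMX2, pairs that overlap more than 1 gene were not counted, and whether this sets its level was not tested.

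Of the nectins, their adaptor and 2 immunoglobulin-type adhesion molecules, 1 of 5 rose in edgeR, where 5.19% of all tested genes passed. An unadjusted p under 0.05 was also found for 1 of the 5, against 22.6% of all tested genes. ALCAM, a surface molecule that binds itself and CD6 on T cells, lies at chr3:105366909-105576900. It was at 292, 287 and 255 CPM in controls and at 372, 365 and 347 CPM with VNLG-152R. The groups were well apart and the treated libraries were close to each other. The means were 278 ± 20.0 and 361 ± 12.96 CPM (SD, n = 3 each), 1.30-fold, with a log2 fold change of 0.38 ± 0.09 (SE) and an adjusted p of 0.0266. It ran from 0.32 to 0.41 when 1 library was left out. It did not pass without control replicate 2 (adjusted p = 0.0686) or 3 (0.162) or without VNLG-152R replicate 2 (0.0502) or 3 (0.0669).

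AFDN, afadin, which joins nectins to actin, was at 144, 151 and 138 CPM in controls and at 165, 163 and 158 CPM with VNLG-152R. The treated libraries were the higher ones, and the log2 fold change of 0.17 did not pass (standard error 0.08, adjusted p = 0.231). NECTIN1 had 73.8 to 82.9 CPM and 57.6 to 80.6 CPM (-0.19), and NECTIN3 had 31.5 to 40.5 CPM and 34.7 to 36.1 CPM (-0.06). Both nectins overlapped between groups. CADM1, an adhesion molecule often silenced in tumors, had 30, 28 and 25 raw counts in controls and 21, 45 and 40 after VNLG-152R.

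In the desmosome, 1 of 8 genes fell and none rose in edgeR, and DESeq2 made the same single call. Over all tested genes 5.19% passed in edgeR and 8.79% with DESeq2. An unadjusted p under 0.05 in edgeR was found for 3 of the 8, against 22.6% of all tested genes. PKP3, a plakophilin that anchors desmosomal cadherins and is found in epithelia, lies at chr11:392614-404908. It was at 34.8, 37.0 and 38.9 CPM in controls and at 29.6, 20.8 and 25.1 CPM with VNLG-152R. Every treated library was below every control, and the treated libraries spread more widely. The means were 36.9 ± 2.02 and 25.2 ± 4.40 CPM (SD, n = 3 each), with a log2 fold change of -0.55 ± 0.12 (SE) and an adjusted p of 0.0190. It ran from -0.68 to -0.43 when 1 library was left out. The adjusted p was over 0.05 without control replicate 3 (0.0931) or VNLG-152R replicate 3 (0.0725).

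The other plakophilins did not pass. PKP2 had 62.7, 67.9 and 65.6 CPM in controls and 61.2, 55.5 and 61.6 CPM with VNLG-152R, all lower but with a log2 fold change of only -0.14 (adjusted p = 0.353). PKP4, which is also found outside desmosomes, had 118 to 124 CPM and 107 to 125 CPM (-0.05). DSP, desmoplakin, the link to intermediate filaments, was at 86.1, 118 and 99.8 CPM in controls and at 143, 121 and 118 CPM with VNLG-152R. The groups touched at control replicate 2, and the log2 fold change of 0.33 did not pass (standard error 0.12, adjusted p = 0.121).

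Of the desmosomal cadherins, DSC2 had 26.0, 26.7 and 23.9 CPM in controls and 29.6, 28.7 and 28.9 CPM with VNLG-152R. The 3 treated libraries were above the controls (log2 fold change 0.19, standard error 0.08, adjusted p = 0.194). DSC2 has the longest transcript model of the set, 12325 bases, and its log2 fold change was -0.02 after the length correction. DSG2 had 194 to 219 CPM and 215 to 240 CPM (0.11). The plakins PPL and EVPL, which also build the envelope of skin cells, had 42.3 to 55.5 and 47.7 to 62.6 CPM (0.06) and 87.8 to 94.9 and 78.2 to 107 CPM (-0.04). Neither plakin differed by more than its standard error.

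Of the 8 genes of tight junction strands, 1 rose in edgeR, 6 did not pass and JAM3 was not tested. Over all tested genes 5.19% passed. An unadjusted p under 0.05 in edgeR was found for 2 of these genes, against 22.6% of all tested genes. CLDN7, a claudin of many simple epithelia, lies at chr17:7259903-7263983. It was at 43.7, 49.1 and 45.0 CPM in controls and at 71.2, 79.4 and 54.5 CPM with VNLG-152R. Every treated library was above every control, with VNLG-152R replicate 3 nearest to them. The means were 45.9 ± 2.83 and 68.4 ± 12.7 CPM (SD, n = 3 each), 1.49-fold, with a log2 fold change of 0.57 ± 0.12 (SE) and an adjusted p of 0.0206. It ran from 0.45 to 0.71 when 1 library was left out. Leaving out control replicate 1 took the adjusted p to 0.0706, control replicate 3 to 0.0907 and VNLG-152R replicate 2 to 0.0554, all above 0.05. A same-strand gene, AC003688.1, overlaps 10.8% of the exons of CLDN7. Pairs that overlap more than 1 gene were not counted, and the part of this in its level was not tested.

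CLDN4, the most abundant claudin here, was at 203, 239 and 233 CPM in controls and at 328, 252 and 250 CPM with VNLG-152R. The treated libraries were above the controls, with replicate 1 far above the other two and those near the highest control. The log2 fold change of 0.30 did not pass (standard error 0.11, adjusted p = 0.141). CLDN1 had means of 8.02 ± 0.565 and 7.12 ± 0.868 CPM (-0.17), and CLDN12 had 39.7 to 46.3 CPM and 44.8 to 48.3 CPM (0.13). The claudins therefore had log2 fold changes of either sign, and whether CLDN7 differed from the others was not tested. F11R, a junctional adhesion molecule, had 30.8 to 36.0 CPM and 34.4 to 36.8 CPM (0.07), and 36.6% of its exons overlap a same-strand gene.

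The 2 MARVEL proteins of the tight junction had few counts. OCLN, occludin, had 17, 114 and 96 raw counts in controls and 39, 94 and 140 after VNLG-152R. The lowest and the highest control differed more than the groups, and its log2 fold change of -0.02 had a standard error of 0.49. MARVELD2, the tricellulin gene next to OCLN on chromosome 5, had 21, 25 and 23 raw counts in controls and 34, 24 and 52 after VNLG-152R (0.40, standard error 0.31, adjusted p = 0.466). JAM3 had 0 counts in every library, where 3 counts would be 0.0362 to 0.0498 CPM, and this limit covers counting error only. An antisense gene, NCAPD3, overlaps 8.53% of the exons of JAM3, and its part in the count was not tested.

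On the tight junction plaque and among the polarity proteins none of 6 passed in edgeR or with DESeq2. In edgeR 1 of them had an unadjusted p under 0.05, where 22.6% of all tested genes did. That 1 was TJP3, a zonula occludens scaffold, with 75, 121 and 102 counts in the controls and 174, 157 and 201 counts in the treated libraries, means of 1.58 and 2.35 CPM. The groups did not overlap in CPM, but control replicate 2 and VNLG-152R replicate 2 were nearly equal at 2.01 and 2.05 CPM. It had a log2 fold change of 0.57 ± 0.20 (SE) and an adjusted p of 0.109. TJP1, the scaffold that claudins bind, had only 240, 244 and 305 raw counts in controls and 335, 333 and 351 after VNLG-152R (0.12). CGN and CGNL1, cingulin and its paralog, had 2.91 to 4.10 and 2.89 to 3.70 CPM (-0.20) and 2.88 to 4.60 and 4.33 to 4.57 CPM (0.23). None of these 3 passed. The polarity genes PARD3 and PARD6B were nearly level, with 98.2 to 105 and 91.7 to 105 CPM (-0.01, standard error 0.08) and 11.7 to 13.8 and 11.8 to 14.0 CPM (0.00, standard error 0.10).

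The connexins, the channel proteins of gap junctions, did not pass in edgeR or with DESeq2. None of the 2 had an unadjusted p under 0.05 in edgeR, where 22.6% of all tested genes did. GJA1, the most widespread connexin, had 40.4 to 44.0 CPM in controls and 39.4 to 41.1 CPM with VNLG-152R (-0.05, standard error 0.08). GJB2, a connexin of epithelia and the inner ear, had 69.9 to 77.6 CPM and 72.9 to 86.0 CPM (0.10, standard error 0.09). Both overlapped between groups.

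**Figure D2:**
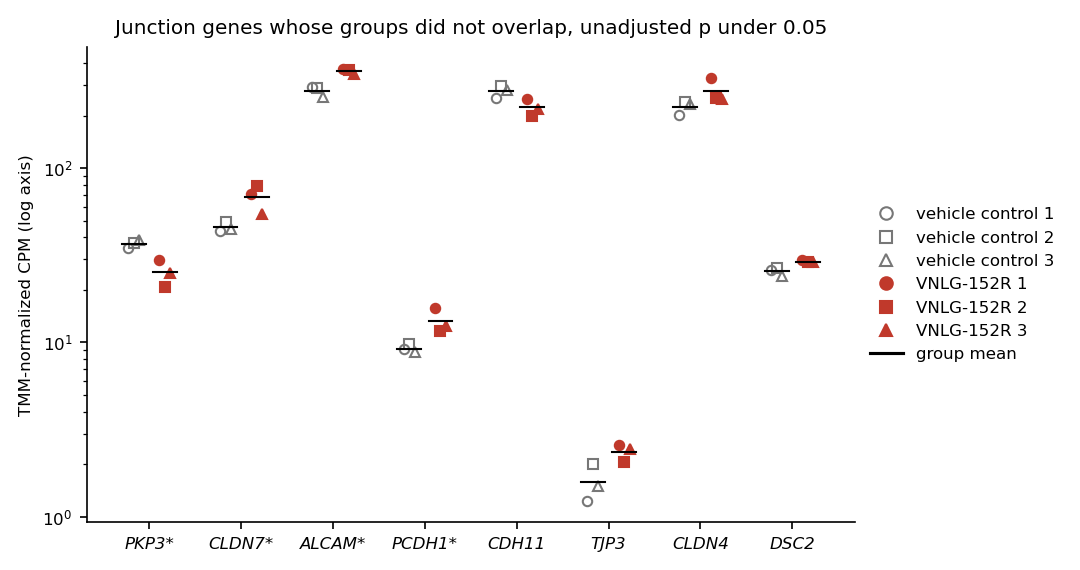
TMM-normalized CPM on a log axis in each library, open gray for vehicle control and filled red for VNLG-152R, with a marker shape for each replicate number and a black bar for the group mean (n = 3 libraries a group). Shown are the 8 members whose groups did not overlap at an unadjusted p under 0.05, with an asterisk on the 4 that passed after adjustment.

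RNA levels differed far more between the genes than between the groups. Levels per kilobase used the longest transcript model of each gene. The order of the genes rests on that choice, and other lengths were not tried. By that length CTNNA1 was highest at 300.4 CPM per kilobase in controls and 334 with VNLG-152R. CTNNB1 followed at 113 and 112 and VCL at 81.9 and 94.4. ALCAM, JUP, CLDN4 and CDH11 came next, at 59.2, 57.2, 54.0 and 40.3 CPM per kilobase in controls. ALCAM, at 76.9 with VNLG-152R, was still below VCL. At the other end were OCLN at 0.186, CDH1 at 0.120, MARVELD2 at 0.0836, CDH3 at 0.0627 and CADM1 at 0.0514 CPM per kilobase in controls. CDH1 and CDH3 were thus near the bottom, while CDH11, at 40.3 in controls and 32.4 with VNLG-152R, was near the desmosomal cadherin DSG2, at 35.9 and 38.8.

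**Figure D3:**
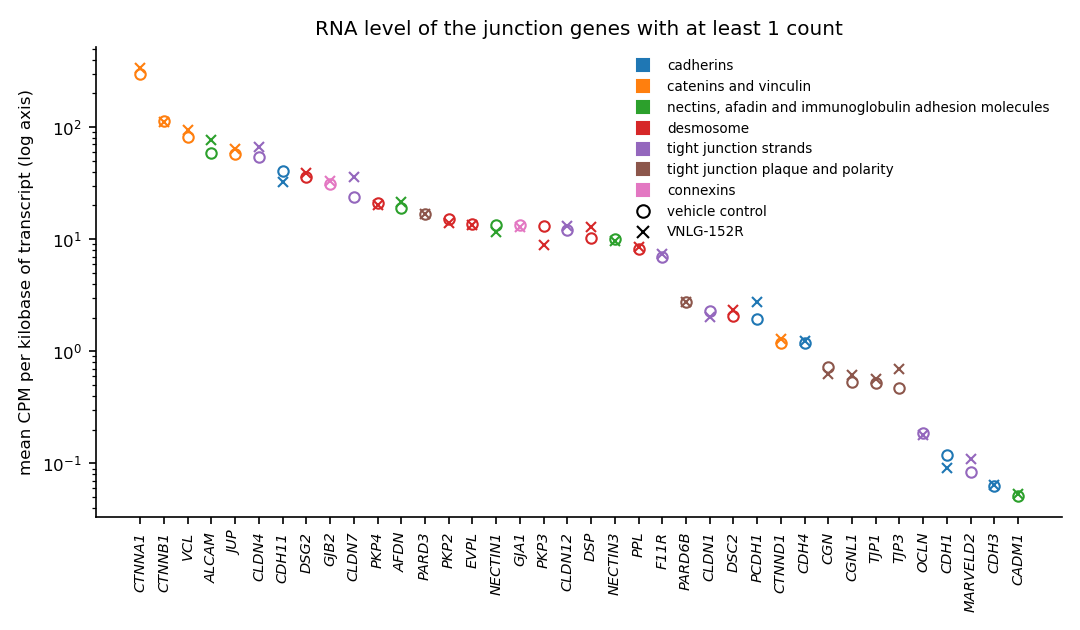
Mean CPM per kilobase of the longest transcript model on a log axis for the 38 members with at least 1 count. Genes are ordered by the vehicle control mean, with circles for vehicle control and crosses for VNLG-152R, colored by role. CTNNA1 is at 300.4 and CADM1 at 0.0514 in controls, and the circle and cross of each gene lie close together beside that range.

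The members also varied together between libraries of the same group. Vehicle control replicate 2 was the highest control for 27 of the 38 tested members and the lowest for 1, and VNLG-152R replicate 1 was the highest treated library for 25 and the lowest for 6. VNLG-152R replicate 2 was the lowest treated library for 20 members and vehicle control replicate 1 the lowest control for 23. Over all tested genes each library was the highest of its group for 28.9% to 38.7% and the lowest for 26.3% to 40.1%. The median deviation of the members from their group mean was -0.065, 0.087 and -0.021 on the log2 scale in the controls and 0.099, -0.092 and -0.020 in the treated libraries, in the order of their replicate numbers. The larger of these deviations exceeded the median difference between the groups, 0.07. Leaving out control replicate 2 gave a median of 0.12, and leaving out VNLG-152R replicate 1 gave 0.05.

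Members were long, with a median transcript length of 4909 bases against 2866 for all tested genes. Log2 fold changes went up with length over all genes with a length (Spearman's rho 0.22 over 16731 genes, which share the same 6 libraries) and hardly over the 38 members (0.032). With a correction for length the median of the members was -0.0079. The same 4 members passed, and CDH11 in addition, where 3.91% of all genes passed.

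**Figure D4:**
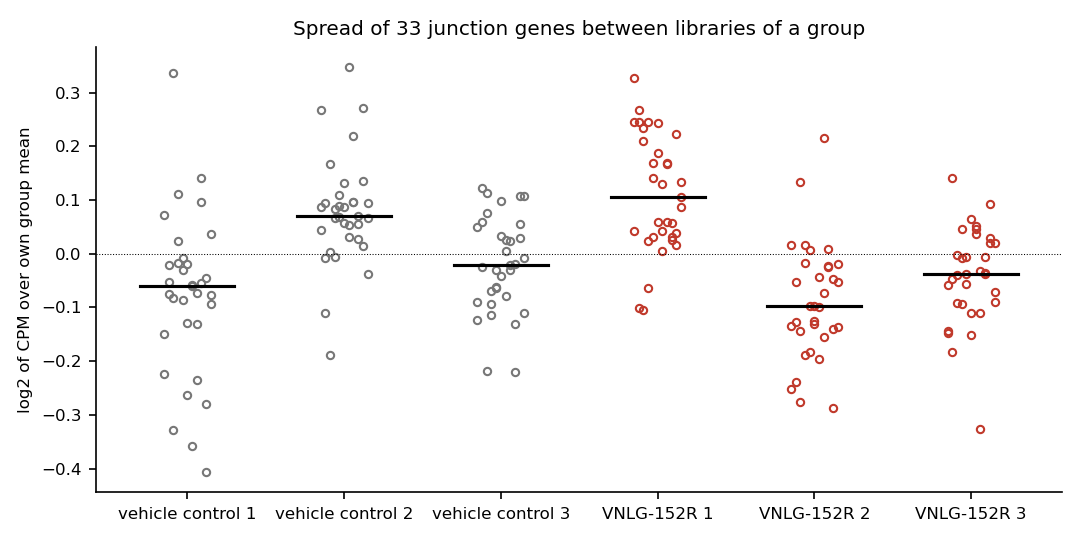
Log2 of CPM over the mean of the library's own group, for 33 junction genes whose mean reached 1 CPM. OCLN, which had a wide spread, was left out by choice. Each point is a gene, the black bar is the median of a library, and the genes sit mostly above 0 in vehicle control replicate 2 and VNLG-152R replicate 1 and mostly below 0 in VNLG-152R replicate 2.

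Beyond the 39, a list of 74 other genes of the same junctions was read out of the same fit. Of these, 35 had a mean under 1 CPM and 46 were tested. In edgeR 2 rose and 1 fell (6.52%, against 5.19% of all tested genes), with a median log2 fold change of 0.05. PLEKHA7, which sits at the zonula adherens with p120 catenin, was at 16.8, 22.1 and 20.1 CPM in controls and 42.5, 39.3 and 35.7 CPM with VNLG-152R. The groups were far apart, with a log2 fold change of 0.99 ± 0.11 (SE) and an adjusted p of 2.23e-04, and it passed under all 15 alternatives. PATJ, a polarity scaffold of the tight junction, rose from 15.1, 16.6 and 14.0 to 21.0, 20.6 and 21.7 CPM (log2 fold change 0.47, adjusted p = 0.0124). It did not pass without control replicate 3 (adjusted p = 0.0957) or VNLG-152R replicate 3 (0.0557). AJUBA, a LIM protein of the adherens plaque, fell from 148, 151 and 153 to 118, 110 and 120 CPM (-0.37, adjusted p = 0.0186). Its adjusted p was 0.0611 without control replicate 2, 0.105 without control replicate 3, and 0.0516 or 0.0548 when treated replicate 2 or 3 was left out. Neither the desmosomal cadherins of stratified epithelium nor the plakophilin PKP1 exceeded 0.0658 CPM in any library.

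Of 16 transcription and splicing factors known to act on junction genes, 11 were tested. In edgeR 1 rose and 1 fell (18.2%, against 5.19% of all tested genes), too few genes to set apart from that share. ELF3, an epithelial ETS factor, was at 3.37, 4.58 and 4.07 CPM in controls and 20.3, 19.8 and 19.3 CPM with VNLG-152R. It rose by far the most of this list, with a log2 fold change of 2.30 ± 0.12 (SE) and an adjusted p of 2.87e-07. KLF4, a factor of epithelial differentiation, fell from 74.6, 85.7 and 81.4 to 59.3, 52.4 and 57.9 CPM (-0.51, standard error 0.09, adjusted p = 0.00627). Both passed under all 15 alternatives. The repressor ZEB1 had 102 to 118 CPM and 111 to 121 CPM and did not pass (0.07, adjusted p = 0.684), and ZEB2 at 14.5 to 15.2 and 16.6 to 19.0 CPM did not pass either (0.25, adjusted p = 0.128). SNAI1 and SNAI2 were at 1.92 to 4.55 CPM over all libraries. GRHL2, OVOL1 and OVOL2, known activators or keepers of the epithelial state, were at 0.0664 CPM or less, and TWIST1 and TWIST2 had no count in any library.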

How the data were processed

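Polyadenylated RNA of MDA-MB-231 cells was sequenced in 3 vehicle control and 3 VNLG-152R samples. For every sample the authors deposited a table of raw counts by Ensembl gene. The submitters' processing notes name HISAT, HTSeq, DESeq and GRCh38, with no versions or roles. The annotation release and strand setting were not given in the sources used here. Pairs in no gene (2.63% to 5.05%), in more than 1 gene (4.81% to 5.16%) or not uniquely aligned (7.81% to 8.12%) stayed out of library sizes and tests.

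Counts were filtered with filterByExpr, normalized by TMM and compared by edgeR 4.0.16 (quasi-likelihood test, R 4.3.3) over all 6 libraries without covariates. Benjamini-Hochberg adjustment ran over the 17084 genes tested, and a gene passed below 0.05. No exact permutation p is given for single genes, since 3 against 3 cannot go below 0.1. The script was tested on simulated counts. Coordinates, lengths and overlaps are from GENCODE release 29 and promoters from RefSeq. The length of a gene was that of its longest transcript model.

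The members and lists were chosen with earlier results of these data known. Named are all 39 members, with values per library for those that passed or did not overlap at an unadjusted p under 0.05 and raw counts for those under 1 CPM, and of the other lists up to 4 genes of smallest p in each direction. Values per library of DSP, OCLN, CTNND1, TJP1, VCL, AFDN and PKP2, and the other levels given for genes outside the 39, were added after seeing them. Replicates were not duplicates of each other (chi-square per gene 16.6 to 55.1). Results were recomputed with RLE size factors, with library size only, 2 other filters, DESeq2 1.42.0, limma-voom (limma 3.58.1), replicate number as a block, a lowess correction for transcript length (span 0.3), thinning to the shallowest library (seed 1), leaving out each library, and thresholds of 0.01 and 0.1.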

Additional observations from a re-analysis of the deposited data

Results flagged for a closer look

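The share of read pairs that fell in no annotated gene lies outside the gene counts and was above the controls with VNLG-152R, at up to 5.05% (replicate 2) against at most 3.17% in controls. VNLG-152R replicate 2 was also the treated library in which 20 of the 38 tested junction genes were lowest, against 36.8% of all tested genes.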

How the results depend on the processing

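Over all tested genes 887 passed, against 1539 without an expression filter, 1501 with DESeq2, 397 with the replicate block, 254 at an adjusted p under 0.01 and 1729 under 0.10. Junction members that rose numbered 3, against 5 without a filter, 1 with the block and 0 at 0.01, and those that fell numbered 1, against 2 without a filter, with DESeq2, with the length correction or at 0.10, and 0 at 0.01. Other junction genes that rose numbered 2, against 3 without a filter or with DESeq2 and 1 with the block or at 0.01, and those that fell numbered 1, against 2 without a filter, with DESeq2 or with the length correction and 0 with the block or at 0.01. Leaving out 1 library gave 264 to 948 genes in all, 0 to 2 members higher and 0 to 2 lower, and 1 to 3 other junction genes higher and 0 to 2 lower. The cause was not tested, except that each such fit has fewer samples. Whether replicate numbers pair the samples is not known. Same-numbered libraries deviated with correlations of -0.19, -0.17 and -0.11, and libraries of other numbers with 0.012 to 0.15. These cannot decide it, since each deviation is taken from the mean of only 3 libraries. Under the replicate block PKP3 and CLDN7 passed (2.32% of all genes). PCDH1 (adjusted p = 0.0689), ALCAM (0.103), PATJ, AJUBA and VIM (0.153) did not. Some members changed sign, most of them near 0, and DSC2 from 0.19. With the length correction, CDH4 (-0.013), CADM1 (-0.060), DSC2 (-0.021), PPL (-0.012), TJP1 (-0.0039) and PARD6B (-0.030) were below 0, CADM1 was -0.0068 after thinning, PARD6B was -1e-04 with RLE factors and DESeq2, and OCLN was 0.24 with limma-voom and 0.10 with the block. Leaving out 1 library gave CDH3 -0.083 to 0.19, CDH4 -0.12 to 0.22, CTNNB1 -0.045 to 0.0068, NECTIN3 -0.16 to 0.019, CADM1 -0.13 to 0.28, PKP4 -0.10 to 0.015, PPL -0.073 to 0.13, EVPL -0.19 to 0.047, OCLN -0.49 to 0.46, PARD3 -0.042 to 0.054 and PARD6B -0.074 to 0.068. RLE factors, library size alone, a mean of at least 1 CPM, limma-voom and thinning kept the same 4 members. CDH1, CDH3, CADM1 and MARVELD2 rest on few counts, and the standard error of OCLN was 0.49 both with all counts and after thinning.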

Other observations

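ACTN4, an actin crosslinker of the adherens plaque that most cells express strongly, had 2, 49 and 7 raw counts in controls and 25, 17 and 2 after VNLG-152R, whereas its paralog ACTN1 was at 650 to 791 and 652 to 879 CPM. CTNND1, TJP1 and OCLN were likewise low beside their partners CTNNB1 and CLDN4. The part of overlapping genes or near copies in these counts was not tested, so the levels of these genes are uncertain.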
